A study of Rattus norvegicus with 6 samples.

Results

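Interferon-high enterocyte nuclei were nuclei of the rat colon epithelium that held at least 5 molecule tags (UMIs, unique molecular identifiers that count RNA molecules rather than reads) summed over 8 interferon-stimulated genes, Ifit2, Rsad2, Cmpk2, Herc6, Samd9, Gbp2, Gbp5 and Ubd. They were selected on those counts in the 3 enterocyte count tables, and 220 of 8782 enterocyte nuclei qualified, out of 9800 nuclei in the series. They were described against 3812 enterocyte nuclei that held no UMI of the 8 genes and at least 1000 UMIs in all, called marker-0 nuclei here. The 8 genes chose the nuclei, so their levels in members are given as a description, and members were tested against marker-0 nuclei on other genes only. The 8 genes were also tested between treatments over all enterocyte nuclei, a contrast that the selection did not use.

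The series was a single-nucleus RNA survey of wild-type male Wistar rats, with nuclei taken from flash-frozen colon and the T cell and enterocyte clusters deposited as separate tables. Sham rats were given water only. The placebo and PL8177 groups drank 5% dextran sulfate sodium (DSS), which injures the colonic epithelium, on days 1 to 3, and plain water afterwards. They were gavaged 2 times per day, 6 hours apart, from day 4 through day 7, with a placebo capsule or with 50 µg per animal of PL8177, a melanocortin 1 receptor agonist peptide. Each treatment had 3 library tags, which open the names of the nuclei: GR12, GR13 and GR15 in sham, GR22, GR23 and GR24 in placebo, and GR41, GR43 and GR44 in PL8177. The labels do not tie tags to rats, and a tag was taken as 1 rat.

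Interferons are cytokines that a cell releases on sensing foreign nucleic acid or on immune activation. Signals of type I and type III interferons end at an interferon-stimulated response element in target promoters, and those of interferon-gamma at a gamma-activated site. In the gut, the epithelium is a main target of type III interferon, and its response includes antiviral effectors, antigen presentation and cell death genes. Among the selecting genes, Ifit2 and Rsad2 (viperin) restrict viral RNA and viral replication, Cmpk2 is a mitochondrial nucleotide kinase and a neighbour of Rsad2, Herc6 belongs to the family of ligases for the ubiquitin-like protein ISG15, Samd9 restricts poxviruses, Gbp2 and Gbp5 are guanylate-binding proteins, and Ubd (FAT10) is a ubiquitin-like modifier also raised by TNF.

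The promoters of the selecting genes are shown because those genes are known to share interferon-responsive elements. Of the 8 genes, 7 matched by symbol to the RefSeq promoter table (build GRCr8, 250 bases before to 50 bases after the gene start). The core letters of the interferon-stimulated response element, GAAANNGAAA on either strand, were found in 4 of the 7, in Rsad2, Samd9, Gbp2 and Gbp5, against 1312 of all 33469 promoters (3.92%) and 94 of the 2688 matched promoters of genes tested below (3.50%). The core of the gamma-activated site, TTCNNNGAA, was found in Samd9 alone of the 7, against 8.87% of all promoters. Neither motif was found in Cmpk2, Herc6 or Ubd in this window. Among the 24 antiviral genes that were higher in the members (below), 21 matched and 11 of these held the response element core, Parp14 and Oasl2 among them. Capitals mark the motif letters, which in Samd9 overlap and include 3 response element matches, and in Parp14 include 1 match of each motif. The sequences are written 5′ to 3′ on the strand of the gene, and are those of Rsad2, chr6:48788071-48788370 on the minus strand, Samd9, chr4:32138909-32139208 on the minus strand, Gbp2, chr2:234005477-234005776 on the plus strand, Gbp5, chr2:233910749-233911048 on the plus strand, Parp14, chr11:78407884-78408183 on the plus strand and Oasl2, chr12:47383136-47383435 on the minus strand.
Rsad2: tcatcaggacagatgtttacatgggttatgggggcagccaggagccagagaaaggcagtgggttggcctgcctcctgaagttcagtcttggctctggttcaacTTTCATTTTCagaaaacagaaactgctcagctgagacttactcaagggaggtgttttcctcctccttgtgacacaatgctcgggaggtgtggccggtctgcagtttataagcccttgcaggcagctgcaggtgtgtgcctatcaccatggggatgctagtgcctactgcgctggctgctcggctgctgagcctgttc
Samd9: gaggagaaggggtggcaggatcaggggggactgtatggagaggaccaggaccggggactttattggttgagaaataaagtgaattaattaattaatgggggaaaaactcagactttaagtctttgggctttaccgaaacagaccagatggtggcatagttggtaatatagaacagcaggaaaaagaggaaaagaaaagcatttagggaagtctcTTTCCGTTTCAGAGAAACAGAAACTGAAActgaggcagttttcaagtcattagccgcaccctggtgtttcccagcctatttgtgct
Gbp2: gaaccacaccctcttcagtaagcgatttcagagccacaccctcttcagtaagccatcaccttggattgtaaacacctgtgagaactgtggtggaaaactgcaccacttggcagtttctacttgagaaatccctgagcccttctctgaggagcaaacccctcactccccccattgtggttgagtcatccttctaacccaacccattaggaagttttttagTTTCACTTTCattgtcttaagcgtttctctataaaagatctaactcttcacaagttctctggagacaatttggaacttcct
Gbp5: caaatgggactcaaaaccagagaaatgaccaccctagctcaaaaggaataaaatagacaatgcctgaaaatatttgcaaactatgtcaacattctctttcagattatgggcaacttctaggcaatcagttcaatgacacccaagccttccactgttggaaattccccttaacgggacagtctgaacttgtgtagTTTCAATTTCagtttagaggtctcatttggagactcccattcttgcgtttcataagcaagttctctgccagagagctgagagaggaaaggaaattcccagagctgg
Parp14: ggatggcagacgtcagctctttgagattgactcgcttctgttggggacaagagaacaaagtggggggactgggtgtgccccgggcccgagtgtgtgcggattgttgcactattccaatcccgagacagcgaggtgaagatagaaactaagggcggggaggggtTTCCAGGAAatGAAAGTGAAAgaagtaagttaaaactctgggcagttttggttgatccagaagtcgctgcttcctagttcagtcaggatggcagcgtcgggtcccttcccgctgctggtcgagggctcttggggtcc
Oasl2: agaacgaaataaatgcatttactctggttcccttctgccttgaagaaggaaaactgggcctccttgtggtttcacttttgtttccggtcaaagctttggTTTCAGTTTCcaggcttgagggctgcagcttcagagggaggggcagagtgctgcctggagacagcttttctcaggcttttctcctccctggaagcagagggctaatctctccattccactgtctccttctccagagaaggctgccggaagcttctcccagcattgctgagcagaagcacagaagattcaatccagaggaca

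Members were found under every treatment and in every tag, but 3 tags held most of them. In sham, 12 of 929 nuclei qualified in GR12 (1.29%), 63 of 827 in GR13 (7.62%) and 3 of 708 in GR15 (0.424%). In placebo, 10 of 1347 qualified in GR22 (0.742%), 30 of 304 in GR23 (9.87%) and 21 of 1308 in GR24 (1.61%). In PL8177, 5 of 1016 qualified in GR41 (0.492%), 22 of 1531 in GR43 (1.44%) and 54 of 812 in GR44 (6.65%). Each treatment thus had 1 tag whose exact 95% binomial interval lay above those of its other tags, with lower bounds of 5.90% in GR13, 6.76% in GR23 and 5.03% in GR44, and the 3 treatments overlapped throughout. These intervals cover counting error only.

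**Figure D1:**
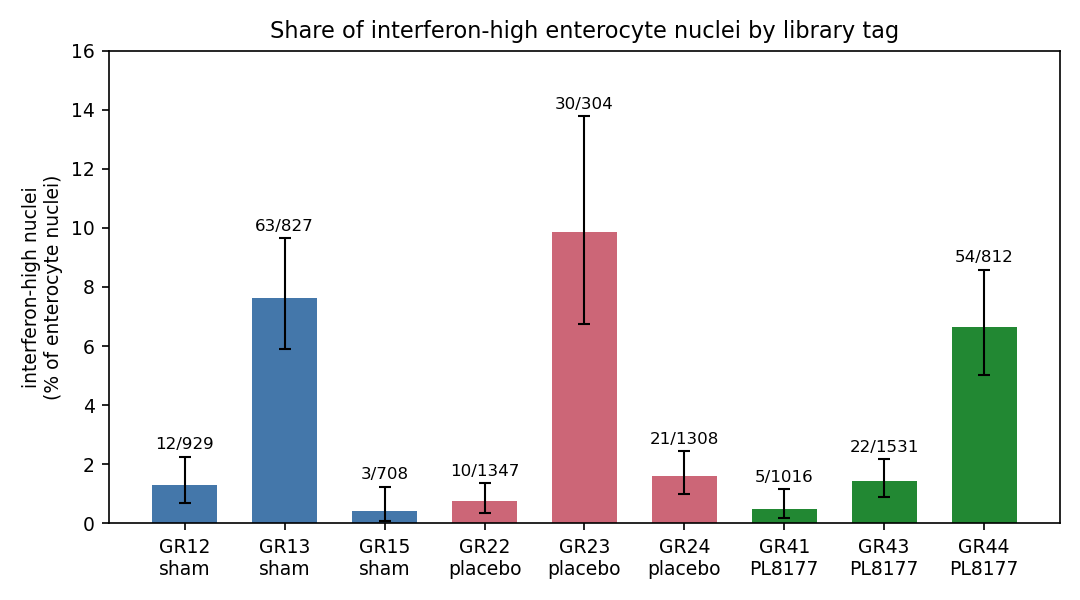
Share of interferon-high nuclei among the enterocyte nuclei of each library tag. Bars give the percentage, whiskers the exact 95% binomial interval (counting error only), numbers the members over all enterocyte nuclei of that tag, and colours the treatment. GR13, GR23 and GR44 stand above the other 6 tags, 1 in each treatment.

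The share did not differ between treatments beyond the spread of the tags. Its mean was 3.11% ± 3.93 (SD, n = 3 tags) in sham, 4.07% ± 5.04 in placebo and 2.86% ± 3.32 in PL8177. By two-sided exact permutation tests over tags, placebo minus sham was 0.961 percentage points (p = 0.6, Benjamini-Hochberg adjusted over the 3 comparisons 0.9), PL8177 minus placebo was -1.21 points (p = 0.6, adjusted 0.9) and PL8177 minus sham was -0.251 points (p = 1, adjusted 1). With 3 tags against 3, p cannot fall below 0.1, and no sign was stable when single tags were left out: without GR13, PL8177 minus sham was 2.002 points, and without GR23, PL8177 minus placebo was 1.69 points and placebo minus sham -1.94 points. With nuclei of the T cell tables that held more enterocyte than T cell marker UMIs counted in, an alternative added after seeing the data, GR23 rose to 31.4%, placebo minus sham to 8.14 points and PL8177 minus placebo moved to -8.35 points (p = 0.6 for both, exact permutation test).

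The 3 tags with many members were also shallow. The median enterocyte nucleus held 437 UMIs in GR13, 612 in GR23 and 752 in GR44, beside 520 in GR15, 970 in GR24 and 1417 to 2331 in the other 4. A fixed threshold of 5 UMIs is harder to reach in a shallow nucleus. The share was therefore also taken among nuclei with at least 1000 UMIs, a floor that does not equalise depth. It was 21.2% in GR13, 27.3% in GR23, 16.3% in GR44 and 0.813% to 3.17% in the other 6. After every such nucleus was thinned to 1000 UMIs, which left out 1486 sham, 1232 placebo and 1421 PL8177 nuclei, 45.5%, 34.3% and 26.2% of nuclei in GR13, GR23 and GR44 kept at least 2 selecting UMIs, beside 0.802% to 4.55% in the others. Of the 220 members, 62 held fewer than 1000 UMIs. What part library quality had in the difference between tags was not tested.

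The excess in GR13, GR23 and GR44 was not limited to the members. In enterocyte nuclei below the threshold, 38.7% held at least 1 selecting UMI in GR13, 18.3% in GR23 and 26.1% in GR44. The share was 5.84% to 12.9% in the other 6 tags, whose nuclei were mostly deeper. Per 10000 UMIs these non-members held 12.5, 4.14 and 4.93 selecting UMIs, beside 0.431 to 1.80. Both values use the genes of the selection rule and are given as a description only. In the marker-0 nuclei, which had none by definition, the summed level of 69 other antiviral interferon-stimulated genes was 79.1 UMIs per 10000 in GR13, 47.6 in GR23 and 56.9 in GR44, and 21.0 to 35.3 in the other 6 tags, so the 3 tags did not overlap with the rest. How often other genes split the tags in this way was not tested. GR13 had only 21 marker-0 nuclei among 66 with at least 1000 UMIs, GR23 49 among 99 and GR44 140 among 282, and the others of that depth held a selecting UMI.

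**Figure D2:**
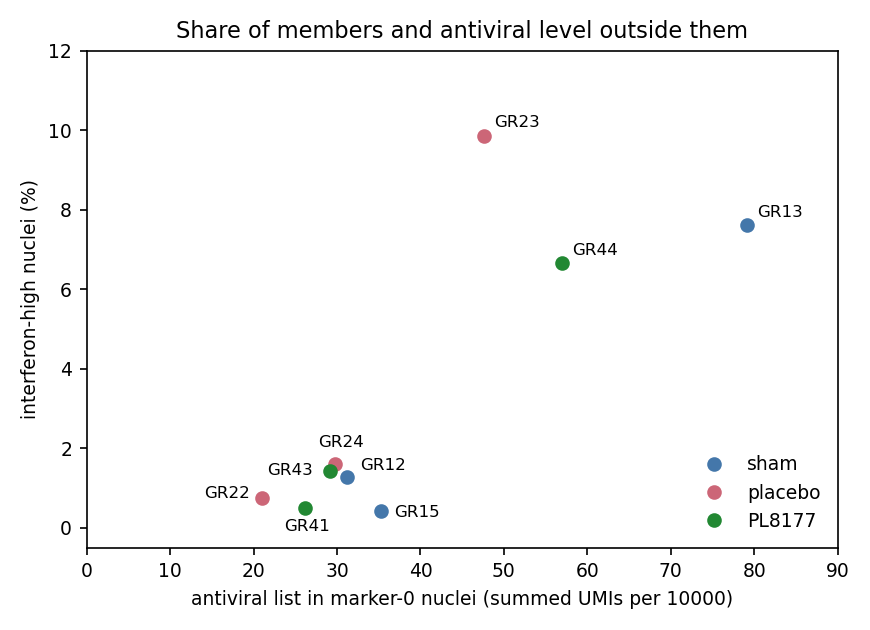
Share of interferon-high nuclei in each tag (vertical axis, percent of enterocyte nuclei) against the summed level of 69 antiviral genes, without the selecting genes, in its marker-0 nuclei (horizontal axis, UMIs per 10000). Each point is 1 tag and colours mark treatments. GR13, GR23 and GR44 lie high on both axes, with 47.6 to 79.1 UMIs per 10000 outside the members.

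Free RNA in droplets can give stray UMIs, which the authors reduced with CellBender, and no cell type lacks interferon-stimulated genes, so a blank level could not be set. In the T cell tables, 37 of 187 nuclei with more T cell than enterocyte marker UMIs (19.8%, median depth 727 UMIs) held a selecting UMI, at 1.78 per 10000 over all tags, against 13.6% (median depth 1070) and 1.14 per 10000 in enterocyte nuclei below the threshold. The members held 34.0 per 10000. The level in T cell-marked nuclei was 7.55 per 10000 in GR44 and 4.57 in GR23 from 16 and 19 nuclei, and 0.609 to 3.01 in the other 7 tags, with GR13 at 3.01 from 1 UMI in 8 nuclei and GR41 at 2.98.

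The members themselves ranged widely. They held 312 to 22652 UMIs (median 1902) and 5 to 48 selecting UMIs (median 8). Just inside the threshold were 55 nuclei with 5 selecting UMIs and 29 with 6, and just outside it 75 with 4 and 114 with 3. The nuclei with 5 had a median of 3 detected selecting genes and a median depth of 2197 UMIs, and those with 4 had 2 genes and 1646 UMIs. Scrublet marked 1 of the 220 members as a doublet and 48 of all 9800 nuclei, too few for the caller to be relied on. No member barcode was among the 10 barcodes found under more than 1 tag.

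Most members expressed several of the 8 genes, but not in every tag. At least 3 selecting genes were detected in 166 of 220 members (75.5%), and at least 4 in 99 (45.0%). The share with at least 3 was 90.5% of 63 members in GR13, 86.7% of 30 in GR23, 79.6% of 54 in GR44 and 76.2% of 21 in GR24. At least 3 were found in 45.5% of 22 members in GR43 and in 3 of 12 in GR12, where 31.8% and 33.3% of members owed more than 80% of their selecting UMIs to 1 gene. The members of GR12 and GR43 were the deepest, with medians of 7799 and 4728 UMIs, at which 5 UMIs are a small part of the nucleus: their selecting genes came to 10.1 and 12.8 UMIs per 10000, against 125 in GR13, 49.7 in GR23 and 45.7 in GR44.

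Herc6 was the selecting gene detected in the largest share of members, 79.1%, and led the count in 73 of them. Samd9 was detected in 53.6%, Rsad2 in 50.5%, Ubd in 47.3%, Ifit2 in 46.8%, Cmpk2 in 33.6%, Gbp2 in 55 of the 220 and Gbp5 in 6.36%. The level of Herc6 in members was lowest in GR15 with 1.62 UMIs per 10000, had a median tag at 5.54 in GR41 and was highest in GR13 with 24.2. Rsad2 ran from 1.77 per 10000 in GR12 to 19.6 in GR41, where 39 UMIs came from 4 of the 5 members and 24 of these from 1 nucleus. The composition thus shifted from tag to tag, though in tags with few members it rests on few nuclei.

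Ubd showed the sharpest split. In members it stood at 45.2 UMIs per 10000 in GR13, 9.13 in GR44, 2.99 in GR24 and 2.71 in GR23, at 0.0719 in GR43, and at 0 in GR12, GR15, GR22 and GR41. It led the count in 27 of the 63 members of GR13. Gbp2 was spread otherwise: it made up 69 of the selecting UMIs in the 12 members of GR12, or 5.82 per 10000, and was at 0 in GR41. Ifit2 was highest in GR13 (12.3 per 10000), GR23 (6.70), GR44 (5.86) and GR24 (5.64), and lowest in GR12 (0.0843). The members held 69.1% of all Ifit2 UMIs in enterocyte nuclei, 66.5% of Ubd and 59.5% of Rsad2, but 42.7% of Herc6 and 30.4% of Gbp5.

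**Figure D3:**
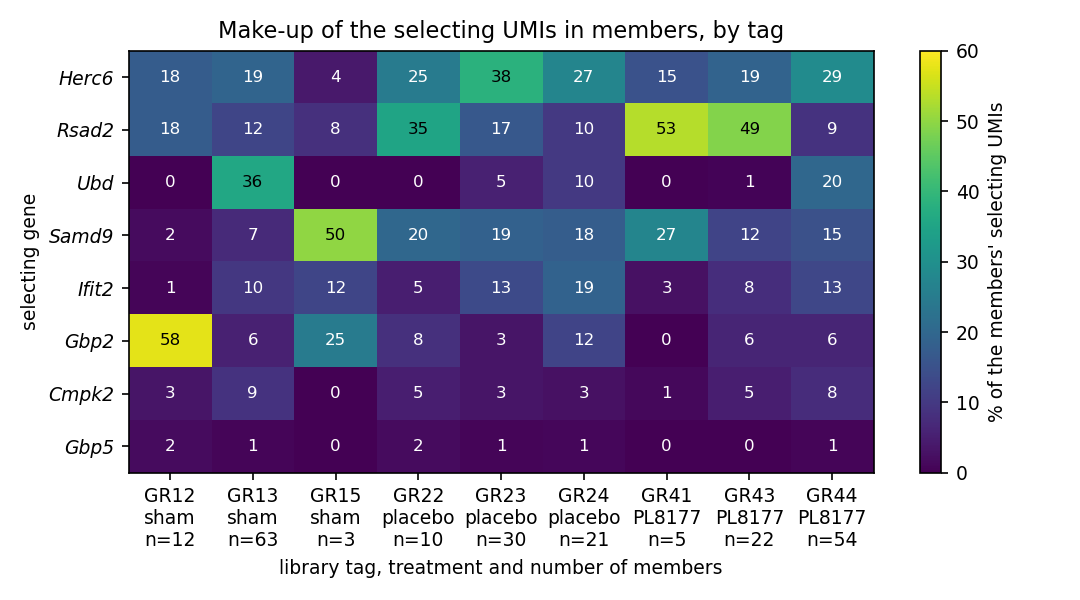
Make-up of the selecting UMIs of the members in each tag. Each cell gives the percentage of that tag's selecting UMIs (colour scale and number) that came from the gene in its row, with the number of members under each tag. Ubd and Herc6 fill much of GR13, Herc6 leads in GR23 and GR44, Gbp2 in GR12, and Rsad2 in GR41 and GR43.

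The label of enterocyte held in the members. The summed level of 15 enterocyte markers was 238 to 438 UMIs per 10000 in members over the 9 tags (median 320) and 135 to 289 in marker-0 nuclei (median 251), and was higher in members in 9 of 9 tags. Against depth-matched nuclei it was higher in 8 of 9 tags, with ratios of 0.877 in GR41 to 1.78. Muc13 was a large part of this sum, at 48.3 to 168 per 10000 in members and 10.1 to 64.6 in marker-0 nuclei. The sum without Muc13 was not taken. In the test described below, 13 of the 15 markers were tested, with 5 called higher and 1 lower. With libraries scaled by total UMIs these counts were 3 and 4. The 11 T cell markers summed to 10 UMIs in 8 members (3.64%, 0.158 per 10000), beside 3.25% of nuclei and 0.115 per 10000 in the marker-0 class. Cd3e, Cd3d, Cd3g and Cd2 were among the 7 at 0, which allows up to 0.0474 UMIs per 10000 for each over the class. Markers of macrophages and dendritic cells summed to 155 UMIs in the members, but 147 of these were Mrc1, the mannose receptor, while Csf1r, Adgre1, Cd163, Itgax, C1qb and Lyz2 were at 0. The level of Mrc1 was itself higher in members in 7 of 9 tags, at 0 to 3.83 per 10000 against 0 to 1.17. Without Mrc1, the 9 other macrophage and dendritic markers came to 0 to 0.259 UMIs per 10000 in members and 0.0144 to 0.352 in marker-0 nuclei. Goblet cell markers ranged from 0.647 to 9.82 per 10000 in members and 1.10 to 2.76 in marker-0 nuclei and were higher in members in 7 of 9 tags. Of the goblet genes, Zg16 lay at 0 to 3.83 per 10000 in members and 0 to 0.352 in marker-0 nuclei, and Tff3 (trefoil factor 3) at 0 to 2.16 and 0 to 0.222. The part of other cells in these genes was not tested.

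To ask what else marked these nuclei, counts were summed per tag and class and compared within tags in the 7 tags that had at least 10 nuclei of each class, leaving out GR15 with 3 members and GR41 with 5. The ranges of levels and the counts of tags below cover all 9 tags, unlike the fold changes and p-values. Some ends of these ranges thus rest on few nuclei, such as the highest level of Parp14 (GR15) and of Ripk3 (GR41). A gene was called where the adjusted p was under 0.05 and the log2 fold change exceeded 0.5 in size. Of 3345 genes tested, 621 were higher in members (18.6%) and 562 lower (16.8%), so a call by itself was common, and each list below is to be read against those shares and a median log2 fold change of -0.01 over all genes. To be tested, a gene needed at least 0.901 UMIs per 10000 in 2 of the 14 libraries. Of the 3345 genes, 2384 met this in either class alone, and among these 475 were higher (19.9%) and 282 lower (11.8%). Another 316 passed through the members alone, of which 146 were called higher and none lower, and 511 through the marker-0 nuclei alone, of which 279 were called lower and none higher. The filter set the direction that a gene of these 2 kinds could be called in, so the named ones are given by their levels or UMIs with no p. In the fit with no filter, 125 of the 146 and 253 of the 279 were called in the same direction. When the libraries were scaled by total UMIs instead of the trimmed mean of M-values (TMM), the median of all genes moved to -0.25 and the split to 408 higher and 950 lower. Members were also compared with an equal number of nuclei that held no selecting UMI and were matched on depth within tags, with no floor of 1000 UMIs. The match was incomplete in GR23, with medians of 2367 UMIs in members and 1822 in matched nuclei. Against these depth-matched nuclei, 441 of 2516 genes were higher (17.5%) and 379 lower (15.1%), and 423 of the 558 main higher calls and 324 of the 405 main lower calls that could be tested recurred. The members had a median of 1902 UMIs and the marker-0 nuclei 2308. In all, the members held 634556 UMIs and the marker-0 nuclei 11569075. Pairs of UMI counts given below are raw and are to be read against these unequal totals.

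Other antiviral interferon-stimulated genes were higher in the members. Of 69 such genes besides the selecting 8, 36 passed the filter on low counts, 24 were called higher, none lower, and the median log2 fold change was 1.23. Of the 21 that passed in either class, 15 were higher. Their summed level was 53.5 to 219 UMIs per 10000 in members (median 91.4) and 21.0 to 79.1 in marker-0 nuclei (median 31.2), higher in 9 of 9 tags by 2.04- to 3.90-fold, and by 2.001- to 4.17-fold against depth-matched nuclei. Because the selecting genes belong to the same response, and because a low-count gene had to be high in members to pass the filter, this count describes the members and does not test the label.

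Slfn4, a member of the Schlafen family of interferon-induced regulators, differed most among the antiviral genes. It held 0.894 to 22.4 UMIs per 10000 in members (median 2.73) and 0.0158 to 1.41 in marker-0 nuclei (median 0.208), and was higher in 9 of 9 tags (log2 fold change 4.73, SE 0.25, adjusted p = 6.3e-17). Rnf213, a large ubiquitin ligase that acts on intracellular pathogens and lipid droplets, was detected in 88.2% of members and 25.9% of marker-0 nuclei. Its level was 5.15 to 64.3 per 10000 in members (median 19.7) against 0.835 to 13.7 (median 2.14), a log2 fold change of 2.94 (SE 0.21, adjusted p = 3.9e-13). Parp14, an ADP-ribosyltransferase, was detected in 79.5% of members and 19.3% of marker-0 nuclei, at 4.55 to 22.8 per 10000 (median 8.99) against 0.583 to 5.98 (median 1.14). Its log2 fold change was 2.54 (SE 0.19, adjusted p = 1.3e-12), and it was higher in 9 of 9 tags. Parp14 is 1 of the genes whose promoter holds the response element core printed above.

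Of the RIG-I-like sensors of foreign RNA, Ifih1 was higher and Dhx58 was not called (0.97). Ifih1 (MDA5) held 1.63 to 8.49 UMIs per 10000 in members and 0.785 to 3.17 in marker-0 nuclei, and was higher in 9 of 9 tags (log2 fold change 2.12, SE 0.20, adjusted p = 4.9e-10). Ddx58 (RIG-I) was sparse, with 25 UMIs in members and 42 in marker-0 nuclei, and passed the filter through the members alone. Oasl2, of the 2′-5′ oligoadenylate synthetase-like proteins, was higher in 9 of 9 tags (2.01, SE 0.19, adjusted p = 4.9e-10). Sectm1b (2.88, SE 0.22, adjusted p = 1.2e-12) was also higher in 9 of 9 tags. Ifi47, an immunity-related GTPase, Apol9a and Usp18, which removes ISG15 and restrains the type I receptor, passed through the members alone. Ifi47 lay at 0.504 to 3.50 per 10000 in members and 0.0693 to 0.703 in marker-0 nuclei, Apol9a at 0 to 2.68 and 0 to 0.721, and Usp18 at 0 to 2.20 and 0 to 0.220. Of the tested antiviral genes, 12 were not called, including Adar (0.50) and Nlrc5 (0.63).

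Genes of antigen presentation and of the interferon-gamma response were higher too. Of 46 such genes, 18 were tested, 13 were called higher, none lower, and the median log2 fold change was 1.41. Of the 9 that passed in either class, 7 were higher. Their summed level was 82.6 to 285 UMIs per 10000 in members and 31.9 to 119 in marker-0 nuclei, with a ratio of 1.15 to 3.29 that exceeded 1 in 9 of 9 tags. B2m, the shared light chain of class I molecules, held 16.3 to 50.6 per 10000 in members (median 33.3) and 4.40 to 25.1 in marker-0 nuclei (median 12.7), a log2 fold change of 1.65 (SE 0.17, adjusted p = 2.1e-09). The class I heavy chain gene RT1-A1 held 14.8 to 108 per 10000 (median 45.4) against 2.96 to 41.9 (median 17.6), a log2 fold change of 1.57 (SE 0.19, adjusted p = 6.3e-08). Both were higher in 9 of 9 tags, while their ranges over tags overlapped between the classes. Tap1, a subunit of the peptide transporter that loads class I, was higher in 8 of 9 tags (1.38, SE 0.30, adjusted p = 0.00038), a call lost in thinned nuclei and with at least 10 selecting UMIs.

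Of the guanylate-binding proteins other than the selecting pair, Gbp7 had 36 UMIs in members and 5 in the marker-0 nuclei and could pass the filter only through the members, whereas Gbp3, with 1334 and 13774 UMIs, had an adjusted p of 0.046 in the edgeR test but a log2 fold change below the limit of 0.5 (0.43, SE 0.17). Gbp3 lay at 7.33 to 35.4 per 10000 in members and 5.76 to 40.4 in marker-0 nuclei. The immunity-related GTPases Igtp and Irgm also passed through the members alone, and their levels were higher in members in 6 and 5 of 9 tags. Gbp, RT1, Oas and Schlafen genes have near-identical copies, and reads may be split among them, so the value of a single copy is uncertain.

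In the interferon pathway itself, Irf1 and Jak2 were higher, and most receptors and kinases tested were not called. Of 35 ligand, receptor and signalling genes, 22 were tested, 10 were higher and 1 lower, with a median of 0.49. Of the 17 that passed in either class, 6 were higher and none lower, and with no filter 4 of the 6 were called. Tmem173 (STING), the adaptor of cytosolic DNA sensing, held 0.518 to 4.55 UMIs per 10000 in members and 0 to 0.603 in marker-0 nuclei higher in 9 of 9 tags, and passed the filter through the members alone. Irf1, a transcription factor induced by interferon-gamma, was higher in 8 of 9 tags (1.44, SE 0.19, adjusted p = 2.9e-07) and Jak2, a kinase of the interferon-gamma receptor, in 9 of 9 (1.24, SE 0.20, adjusted p = 6.6e-06). Of the receptors, Ifngr2 was called (0.66, SE 0.21, adjusted p = 0.012) but the call was lost against depth-matched nuclei, without GR43, without the tag term, with no filter, in thinned nuclei, under scaling by total UMIs and with at least 3 selecting genes required. Ifngr1 (0.36) and the type III receptor gene Ifnlr1 (0.58) were not called. Jak1 (-0.07), Stat2 (0.39), Mavs (-0.23) and Tbk1 (0.30) were not called. Irf3, which is activated by phosphorylation, was the gene called lower, and passed through the marker-0 nuclei alone. Its call was lost without GR13, without GR23, without GR24, with DESeq2 and with no filter.

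**Figure D4:**
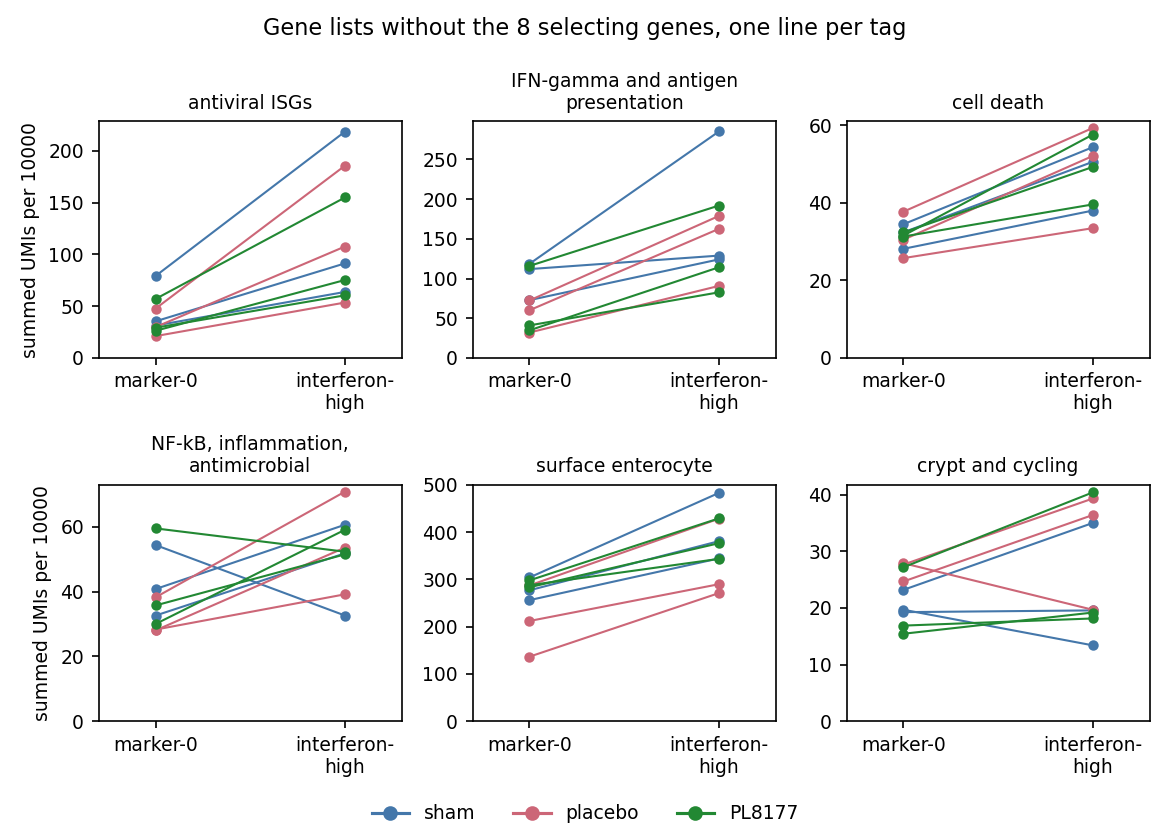
Summed level of 6 gene lists, without the selecting genes, in marker-0 and interferon-high nuclei (UMIs per 10000, axes starting at 0). Each line joins the classes within 1 tag and colours mark treatments. The antiviral, antigen presentation, cell death and surface lists are higher in members in 9 of 9 tags, and the NF-kB and crypt lists in 7 of 9.

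Epithelial defence and inflammatory genes were also higher. Of 37 genes of NF-kB signalling, epithelial inflammation and antimicrobial defence, 15 were tested, 11 were higher and none lower, with a median of 1.05. Of the 11 that passed in either class, 7 were higher, and with no filter 5 of these were called. Under scaling by total UMIs the list had 9 higher and 1 lower. The sum of the list was nevertheless lower in members in 2 of 9 tags, with ratios from 0.600 in GR15 to 1.97. Duox2, the oxidase that releases hydrogen peroxide at the mucosal surface, held 3.11 to 14.1 UMIs per 10000 in members (median 9.76) and 0.637 to 1.82 in marker-0 nuclei (median 1.44), so the ranges over tags did not overlap (log2 fold change 2.93, SE 0.20, adjusted p = 1.3e-13). Its maturation factor Duoxa2 had 39 and 84 UMIs, and Il1a, an alarmin released by damaged epithelium, 177 and 505. Both passed the filter through the members alone, and their levels were higher in members in 9 and 8 of 9 tags. Nfkbia (1.11, SE 0.22) and Birc3 (1.05, SE 0.18), feedback targets of NF-kB, were higher in 8 and 9 of 9 tags. Ccl20, a chemokine for dendritic cells and lymphocytes, passed through the members alone, with 40 and 147 UMIs, and was not called against depth-matched nuclei.

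More genes of cell death were higher than lower in members. Of 37, 21 were tested, 13 were higher and 1 lower, with a median of 0.84. Of the 13 that passed in either class, 6 were higher and 1 lower, and with no filter 3 and 0 of these were called. The summed level of the list was 33.5 to 59.3 UMIs per 10000 in members against 25.7 to 37.7. Ripk3, the kinase of necroptosis, was detected in 37.7% of members and 7.82% of marker-0 nuclei, at 0.998 to 15.7 per 10000 (median 2.41) against 0 to 0.768 (median 0.352). Its ranges did not overlap between the classes, and it passed the filter through the members alone. Mlkl, the effector that Ripk3 phosphorylates, was not called (0.03, SE 0.27, adjusted p = 0.94). Among inflammatory caspases, Casp1 was not called (-0.19), and Casp12 and Casp4 passed through the members alone. Casp12 lay at 0 to 1.72 per 10000 in members and 0 to 0.220 in marker-0 nuclei, and Casp4 at 0.518 to 2.49 and 0.220 to 0.855. Pmaip1 (NOXA), a pro-apoptotic BH3-only protein, was higher in 9 of 9 tags (1.52, SE 0.22, adjusted p = 1.7e-06). Nlrc4, an inflammasome sensor of bacterial proteins, was the gene called lower (-0.59, SE 0.21, adjusted p = 0.029), a call lost with no filter, with DESeq2, without the tag term, in thinned nuclei, with at least 10 selecting UMIs and without GR12, GR23, GR24 or GR44.

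More genes of the colonic surface were higher than lower in members. Of 29 genes of surface enterocytes, 23 were tested, 13 were higher and 3 lower (median 0.61). Of the 20 that passed in either class, 12 were higher and 2 lower, and under scaling by total UMIs the list had 10 higher and 7 lower (median 0.36). Muc13, a transmembrane mucin, held 48.3 to 168 UMIs per 10000 in members (median 91.9) and 10.1 to 64.6 in marker-0 nuclei (median 35.9), higher in 9 of 9 tags (log2 fold change 1.61, SE 0.20, adjusted p = 5.6e-08). Clca4 (1.73, SE 0.19), the adhesion protein gene Ceacam1 (1.89, SE 0.20) and the carbonic anhydrase gene Car4 (1.37, SE 0.19) were also higher in 9 of 9 tags. The ranges of Car4 did not overlap between classes, at 14.2 to 26.3 per 10000 in members and 1.98 to 12.5 in marker-0 nuclei. Hsd17b2, a steroid dehydrogenase gene (-2.54, SE 0.26, adjusted p = 2.1e-09), and Car1, a cytosolic carbonic anhydrase gene (-1.15, SE 0.21, adjusted p = 3.7e-05), were lower in 9 of 9 tags. Hsd17b2 fell from 1.76 to 7.65 per 10000 in marker-0 nuclei to 0 to 1.74 in members.

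Few crypt genes could be tested. Of 26 crypt and cycling genes 7 were tested, 4 were lower and 1 higher. Of the 4 that passed in either class, Lgr4 was lower, Prom1 higher, and the cyclin gene Ccnd1 (0.03, SE 0.26) and Rnf43 (-0.30, SE 0.23), which restrains Wnt receptors, were not called. The other 3 lower calls passed through the marker-0 nuclei alone. Kcnq1, a basolateral potassium channel gene, held 0 to 1.10 UMIs per 10000 in members (median 0.166) and 0.405 to 3.85 in marker-0 nuclei (median 2.11), lower in 9 of 9 tags. The Wnt target Ephb2 lay at 0 to 0.383 in members and 0.270 to 1.10 in marker-0 nuclei, and the chloride channel gene Cftr at 0 to 0.666 and 0 to 4.73. The R-spondin receptor gene Lgr4 was lower (-0.88, SE 0.22, adjusted p = 0.0021), but was not called without the tag term. Prom1 was higher in 8 of 9 tags (1.20, SE 0.18, adjusted p = 2.4e-06) and made up 80.8% of the UMIs of the list in members. The sum of the list was therefore higher in members in 7 of 9 tags, and that of its 25 other genes in none, at 0.505 to 8.32 per 10000 in members and 8.60 to 21.7 in marker-0 nuclei. The cycling genes Mki67 and Top2a had 1 and 3 UMIs in the 220 members.

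**Figure D5:**
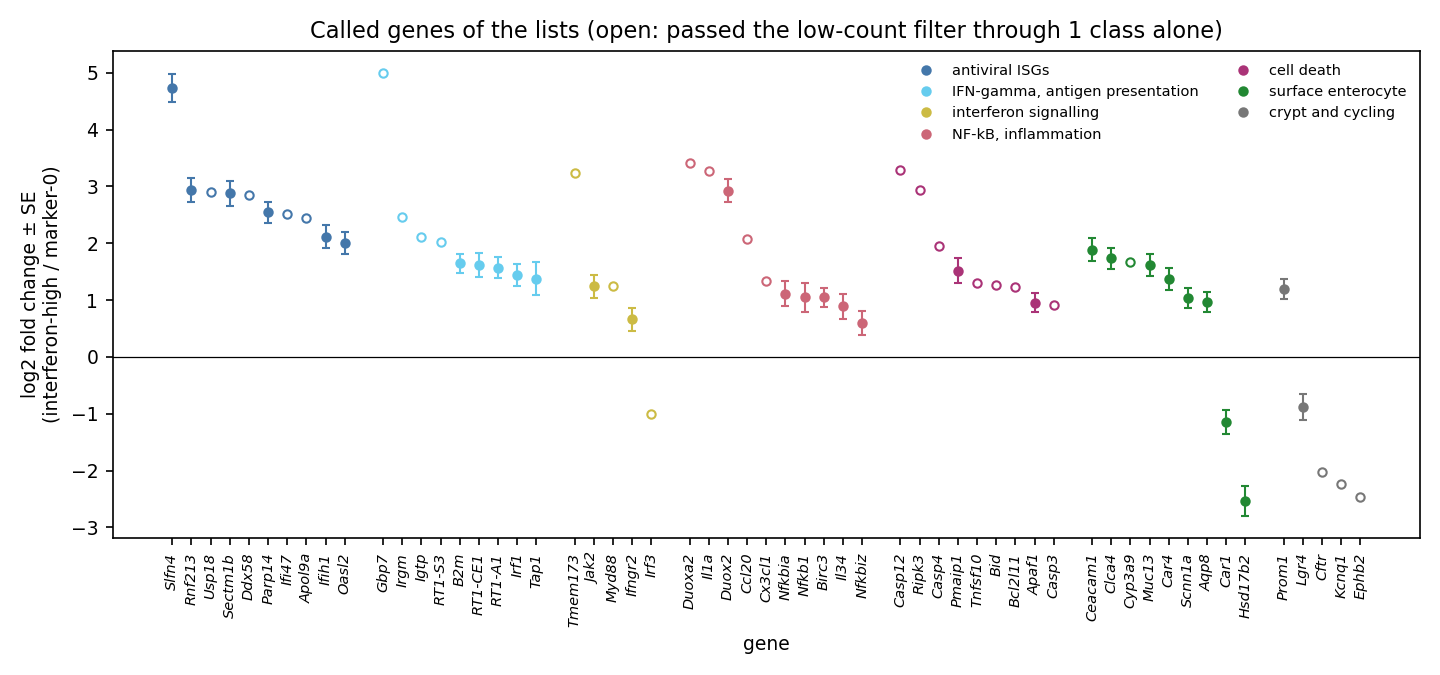
Log2 fold change (vertical axis) of called genes of each list, up to 10 per list, in interferon-high over marker-0 nuclei, from edgeR over 7 tags, with bars of 1 standard error on filled points. Open points are genes that passed the filter on low counts through 1 class alone, which set their direction, colours mark the lists, and a gene of several lists is drawn once. Among the filled points Slfn4 (4.73) stands highest and Hsd17b2 (-2.54) lowest.

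Several of the genes with the largest fold changes lay outside the lists, and those named here passed the filter through the members alone. Cemip, a hyaluronan-binding protein that degrades hyaluronan, held 0 to 19.1 UMIs per 10000 in members (median 1.81) and 0 to 0.797 in marker-0 nuclei (median 0.237), higher in 8 of 9 tags. Apoa1, an apolipoprotein of intestinal and hepatic lipoproteins, had a level that was higher in 8 of 9 tags, with a spread of 0 to 13.4 per 10000 among members. Nckap5 and Tmtc1 had 61 and 31 UMIs in members and 69 and 26 in marker-0 nuclei.

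The genes with the largest falls were nearly absent from the members. Akr1c15, an aldo-keto reductase, had 2 UMIs in the 220 members and 1541 in the marker-0 nuclei, where it lay at 0.621 to 2.16 per 10000. All 10 passed the filter through the marker-0 class alone, which set their direction. Of them only Plch2 and Vgll4 passed the filter in the comparison with depth-matched nuclei. Myb, a transcription factor of proliferating crypt progenitors, had 2 and 451, and Vgll4, a cofactor of TEAD transcription factors, 6 and 1232. Clybl, Prelid2, Ankh, Pitpnm3, Plch2 and Shank2 had 2 to 5 UMIs in members and were lower in 9 of 9 tags. The uncharacterised gene AABR07044049.1 had no UMI in members and 691 in marker-0 nuclei, at least 12.6-fold lower when the members are set at 3 UMIs over the class.

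The contrast between members and marker-0 nuclei did not detectably depend on the treatment. An interaction term between class and treatment in the edgeR fit called 0 of 3345 genes (0%) for sham against placebo, PL8177 against placebo and PL8177 against sham, with 130, 132 and 89 genes at an unadjusted p under 0.05. Each treatment entered with 2 or 3 tags, so the interaction had few degrees of freedom.

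Across all enterocyte nuclei, the edgeR fit called no gene between treatments. By the edgeR test on counts summed per tag, 0 of 9424 genes (0%) were called in each of the 3 comparisons, although 1172, 871 and 621 had an unadjusted p under 0.05. DESeq2 called 115 of 16533 genes (0.696%) for sham against placebo, 70 (0.423%) for PL8177 against placebo and 4 (0.0242%) for PL8177 against sham. All 8 selecting genes were tested and none was called: their log2 fold changes ran from 0.12 to 3.05 for sham over placebo (smallest adjusted p = 0.41), from -0.59 to 1.10 for PL8177 over placebo (0.92) and from -2.46 to -0.72 for PL8177 over sham (0.76). Among 56 tested antiviral genes the medians were 0.47, 0.26 and -0.32 in the same order, beside -0.02, -0.01 and 0.03 over all genes, and none was called. Among 30 tested antigen presentation and interferon-gamma genes none was called by edgeR, but RT1-CE1 was called higher in PL8177 than in sham by DESeq2 and by edgeR with no filter on low counts.

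For the selecting genes other than Gbp2 these treatment values followed single tags, and Ubd and Herc6 are given here. Ubd over all enterocyte nuclei stood at 7.06 UMIs per 10000 in GR13 against 0.00628 in GR12 and 0 in GR15 within sham, at 1.22 in GR23 against 0.0126 in GR22 and 0.204 in GR24 within placebo, and at 1.99 in GR44 against 0 in GR41 and 0.0243 in GR43 within PL8177. Herc6 was also highest in these 3 tags, with 7.46 in GR13, 5.58 in GR23 and 3.72 in GR44, and stood at 0.207 to 0.727 per 10000 in the other 6. For both genes the 3 tags did not overlap with the rest, and each treatment held 1 of them. The same held for Ifit2, Rsad2, Cmpk2, Samd9 and the sparse Gbp5. These genes are part of the sum that selected the members, so the split describes the tags and is no separate test. The share of all genes that split the same tags in this way was not taken, so the split cannot be called particular to these genes. Gbp2, which had the smallest adjusted p of the 8 for sham over placebo, did not split in this way. It stood at 0.317, 1.20 and 0.646 per 10000 in GR12, GR13 and GR15, at 0.0253, 0.470 and 0.192 in GR22, GR23 and GR24, and at 0.0559, 0.0703 and 0.598 in GR41, GR43 and GR44.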

How the data were processed

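Nuclei of 9 frozen colon samples were profiled with 10x 3′ chemistry. The authors aligned reads to the rat genome (Rnor 6.0), introns included, and counted UMIs with Cell Ranger 6.0.1, removed background RNA with CellBender, discarded nuclei below 200 genes or at 5% or more mitochondrial reads, and clustered them with Seurat 4.0.3. They deposited counts per gene and nucleus for the T cell and enterocyte clusters of each treatment, a step that fixed which nuclei could be members. Selecting genes, lists and tests were chosen with earlier results of these data known. The T cell table of the placebo group lists fewer genes (15108) than the others (17388). Here, UMIs were summed per tag and class, the 8 selecting genes were left out of the comparison of classes, and genes passing filterByExpr were tested with edgeR 4.0.16 (quasi-likelihood, TMM, tag as a block since both classes come from the same library, Benjamini-Hochberg adjustment). Treatments were compared over tags. DESeq2 1.42.0 was an alternative. On simulated counts the edgeR script recovered the changed genes. Whether the script would do so at the spread between tags seen here was not tested. Named genes were the 15 largest rises and 10 largest falls with at least 50 UMIs, and up to 10 called genes per list, of which some are not reported here. Levels are UMIs per 10000, without the selecting genes except where they are named. P-values measure the spread between tags, and in the within-tag contrast nuclei of a tag share a library.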

Additional observations from a re-analysis of the deposited data

Results flagged for a closer look

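Nuclei that met the same threshold also stood in the placebo T cell table, outside the enterocyte tables the report is based on. In tag GR23, 272 of 685 nuclei of that table (39.7%, exact 95% interval 36.0% to 43.5%) held at least 5 selecting UMIs, against 1 of 39 in GR43, 2 of 35 in GR44 and none in the other 6 tags, where 19 to 91 nuclei allow shares of up to 3.97% to 17.7%. Of the 272, 271 held more enterocyte than T cell marker UMIs (246 and 0.309 per 10000), and 86.4% had at least 3 selecting genes. When nuclei of the T cell tables with more enterocyte than T cell marker UMIs were joined to the enterocyte nuclei, an alternative chosen after seeing the data, 301 of 960 nuclei of GR23 were interferon-high (31.4%), and the share in GR13 was 7.54% and in GR44 6.64%. None of the 7 gene lists had a tag whose ratio of members to marker-0 nuclei stood apart from the other 8 by Dixon's test.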

How the results depend on the processing

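The differences in the share of interferon-high nuclei changed sign in a few settings: placebo minus sham was -3.95 points after thinning to 1000 UMIs with at least 2 selecting UMIs, and PL8177 minus sham was 0.104 points without Gbp2 in the sum. Leaving out single tags gave ranges of -1.94 to 3.21 (placebo minus sham), -3.11 to 1.69 (PL8177 minus placebo) and -2.15 to 2.002 points (PL8177 minus sham). Joining the T cell table nuclei led by enterocyte markers (added after seeing the data) gave 8.14, -8.35 and -0.206 points. In the members against marker-0 nuclei, the 621 higher and 562 lower calls became 281 and 240 without the tag as a replicate block, 238 and 255 in nuclei thinned to 1000 UMIs, and 77 and 70 with at least 10 selecting UMIs, settings that tested 2297, 1414 and 1248 genes. They became 537 and 855 with no filter on low counts and 621 and 540 with DESeq2. With at least 3 selecting genes required they were 378 and 277, and with scaling by total UMIs 408 and 950 (both added after seeing the data). Leaving out single tags gave 510 to 624 higher and 444 to 549 lower. Main calls that changed sign numbered 12 with at least 10 selecting UMIs, 6 in thinned nuclei and 1 against depth-matched nuclei, and none in the other settings. No named gene changed sign in any setting that tested it, but calls were lost for 15 of them (17 kept) with at least 10 selecting UMIs, among them Jak2, Tap1, Nfkbia, Birc3, Pmaip1, Car4 and Prom1, for 7 (30 kept) without the block, among them Car1 and Lgr4, for 6 (36 kept) after thinning and for 4 (51 kept) against depth-matched nuclei, Ccl20 and Ifngr2 among them. Between treatments, where the edgeR fit called 0 genes, DESeq2 called 115, 70 and 4 genes for sham against placebo, PL8177 against placebo and PL8177 against sham, the fit with no filter 51, 8 and 10, and the fit without the interferon-high nuclei 9, 0 and 0. Leaving out single tags called 0 to 8, 0 and 0 to 2. No selecting gene was called among the 8 tested in the edgeR fits (7 without the interferon-high nuclei). DESeq2 gave an adjusted p for only 4 or 5 of them, and none of these was called. It called RT1-CE1 for PL8177 against sham, as did the fit with no filter. The causes of these differences were not tested. Sparse genes rest on few UMIs: Ddx58 had 25 in members and 42 in marker-0 nuclei, and Usp18 43 and 22.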
